A study of Mus musculus with 30 samples.

Results

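The chaperone and protein folding genes on this array were the probes carrying exactly 1 gene symbol of the heat shock protein, DnaJ, protein disulfide isomerase, chaperonin ring (Cct), FKBP, cyclophilin, Ero1, Edem and signal sequence receptor (Ssr) families. The search also covered Calr, Canx and Sel1l, and left out Hspb1 and Hspg2. It found 38 genes, read by 47 probes, among the 3663 genes and 6267 probes of the table, and 43 of these probes, for 36 genes, had enough values to be tested. By the known site of action, 23 probes (20 genes) belong to the endoplasmic reticulum (ER), 21 probes (15 genes) to the cytosol and nucleus, and 3 probes (3 genes) to mitochondria. The ER chaperones Hspa5 (BiP), Calr and Canx had 0 probes under these symbols and are not analysed here, and 1 probe listing 2 gene entries (Dnaja1) was left out by the rule. The study followed mammary gland involution, in which the gland of a mother loses its milk-secreting tissue once suckling ends, in wild type mice (WT) and in mice heterozygous for the cell cycle transcription factor E2F3 (E2F3 +/-). Glands were taken in lactation, which the labels count as involution day 0, and at involution days 1, 2, 3 and 4, so the 2 genotypes and 5 times gave 10 groups of 3 arrays, with 3 mice per genotype and time per the labels. Mammary gland RNA labelled with Cy5 was hybridised with a common mouse reference RNA labelled with Cy3 on arrays of 70-base oligonucleotides. The labels give no strain, age or design of the E2F3 allele, no probe is named E2f3, and the heterozygous state was therefore not read out on these arrays.

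As background, milk proteins enter the ER through the Sec61 channel, to which the signal sequence receptor proteins are bound, and fold there with the help of lumenal chaperones, disulfide isomerases and proline isomerases. Glycoproteins that fail to fold are marked for export and degradation by the Edem proteins. In the cytosol the Hsp90 and Hsp70 machines with their J protein partners, the TRiC chaperonin ring and small heat shock proteins serve newly made and damaged proteins, and the secreting alveolar cell of the lactating gland carries an ER enlarged for milk protein export.

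Values below are gland over reference ratios divided by the median ratio of their array, so that 1 stands for the array's middle probe, and differences are on the log2 scale. The dyes in the labels make gland over reference the likely direction, but the table does not state it. Values listed at 0 or 0.01 were taken as missing (7.64% of all values), and 5010 probes with at least 2 values in every group were tested in 1 limma fit over all 30 arrays. A probe was called when its Benjamini-Hochberg adjusted p over all 5010 probes was under 0.05. Arrays correlated with the mean of the other 2 arrays of their group at r of 0.883 or more, except E2F3 +/- day 4 replicate 3 (0.781), WT day 2 replicate 3 (0.857) and E2F3 +/- day 3 replicate 1 (0.862). Centring moved the median of all probes in the 8 comparisons with lactation from between 0.0517 and 0.292 as deposited to between -0.07 and 0.14, so changes here are relative to the middle probe. With 3 arrays a group, precision is limited by their number.

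Most folding genes changed during involution, in both directions, and so did most probes of the array. At day 1 in WT glands, 13 of the 43 member probes were called against lactation, 5 higher and 8 lower, where 36.7% of all tested probes were called. At WT day 2, 32 members were called (9 higher, 23 lower) beside 65.2% of all probes, at WT day 3, 11 (2 higher, 9 lower) beside 39.0%, and at WT day 4, 19 (5 higher, 14 lower) beside 56.4%. In E2F3 +/- glands, 13 members were called at day 1 (4 higher, 9 lower) beside 43.6% of all probes. The E2F3 +/- counts were 24 at day 2 (9 higher, 15 lower; all probes 45.9%), 28 at day 3 (11 higher, 17 lower; all probes 66.8%) and 27 at day 4 (12 higher, 15 lower; all probes 70.5%). Members called in both genotypes numbered 9, 22, 9 and 15 on days 1 to 4, and each of them moved in 1 direction in both. The matching shares over all tested probes were not computed, so these counts are not read as particular to the folding genes. An F test over the 8 comparisons passed for 39 of 43 members and for 92.8% of all probes. The share of members called was above that of all probes at day 2 of both genotypes (74.4% and 55.8%) and below it at the other 6 times (25.6% to 65.1%). Of all probes, 18.5%, 31.8%, 17.4% and 25.4% were called higher and 18.2%, 33.4%, 21.6% and 31.0% lower at WT days 1 to 4. In E2F3 +/- glands 23.2%, 23.7%, 34.2% and 33.2% were called higher and 20.3%, 22.2%, 32.7% and 37.4% lower. Of the 170 calls made on member probes, genotype comparisons included, 95 held without any single array and 132 under every other processing setting tried, and 0 changed direction. Leaving out 1 array moved some counts by more than 1.5 times: to 7 at WT day 1 without day 1 replicate 3 and 8 without lactation replicate 3, and to 11 at WT day 4 without day 4 replicate 3. The WT day 3 count went to 7, 5, 7 and 6 without lactation replicates 2 and 3 and day 3 replicates 1 and 2, and the E2F3 +/- day 2 count to 14, 15, 12 and 13 without lactation replicates 2 and 3 and day 2 replicates 1 and 2. The plot of all member probes shows columns of falls in the translocon genes and rises among the disulfide isomerases.

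**Figure D1:**
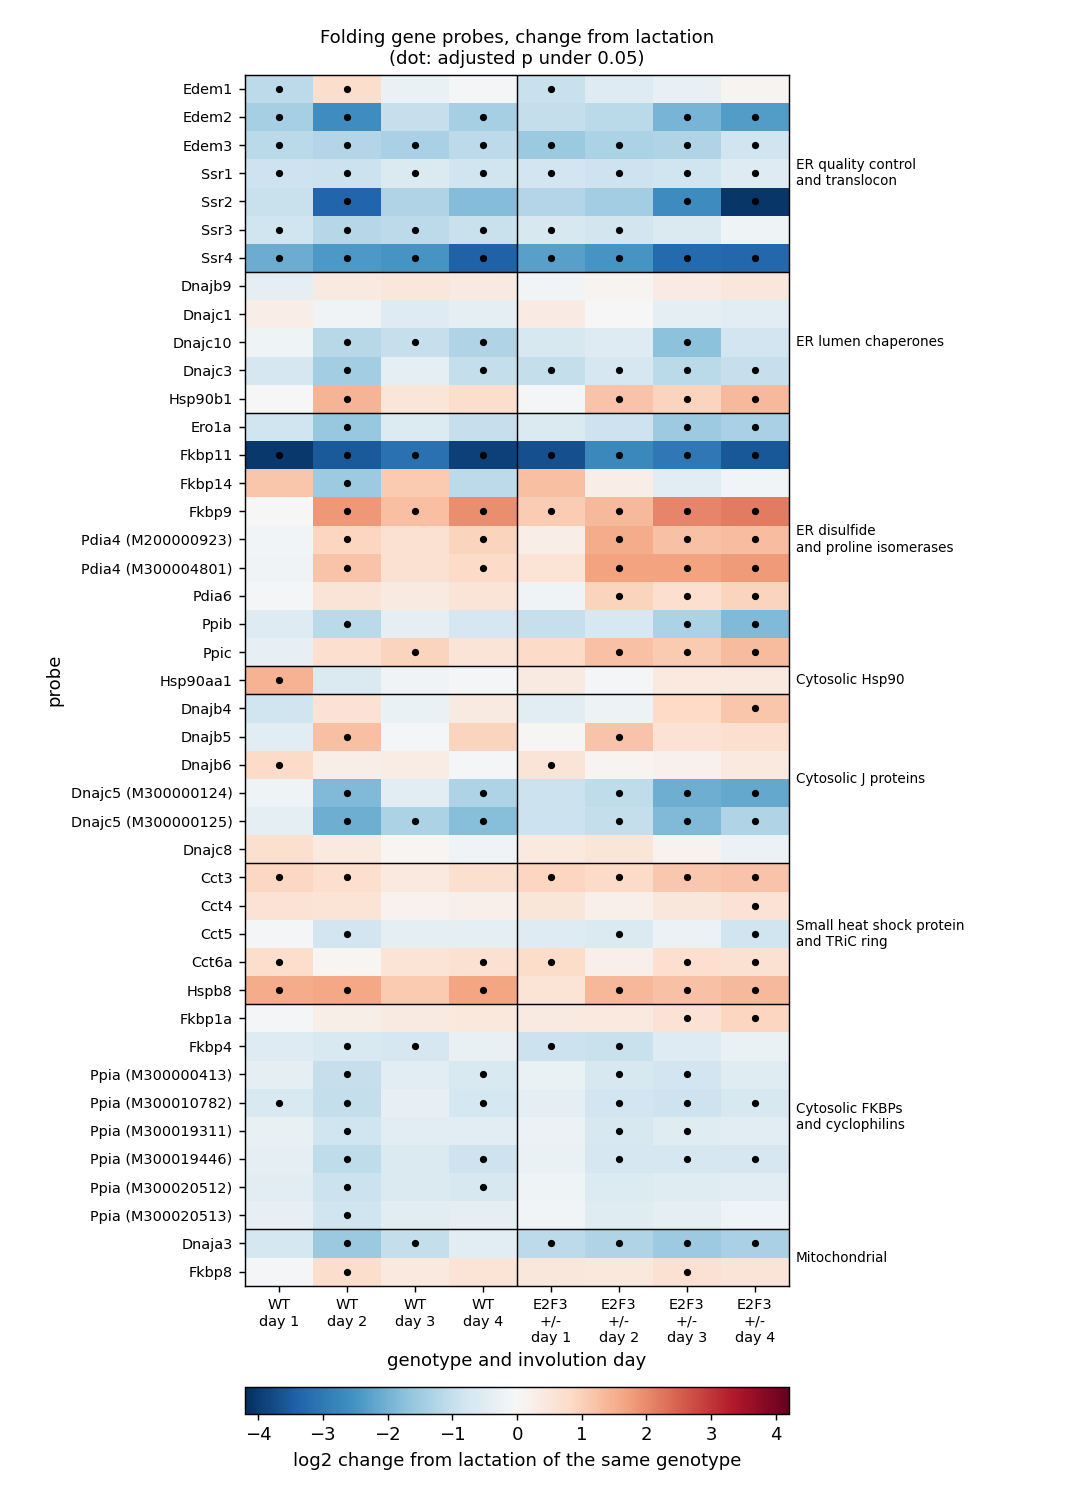
Log2 change from lactation of the same genotype for the 43 tested folding gene probes (rows, grouped by role) at involution days 1 to 4 in WT and E2F3 +/- glands (columns), each cell the difference of 2 means of 2 or 3 arrays. Blue is lower and red higher than lactation, and a dot marks a limma adjusted p under 0.05; the Ssr4 and Fkbp11 rows are blue and dotted in all 8 columns.

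The ER and cytosolic sets each held probes called higher and probes called lower, as did the array. Of 21 tested ER probes, 12 were called lower at 1 or more times and never higher, 6 were called higher and never lower, 1 (Edem1) was called both ways and 2 were never called. Of 20 tested cytosolic probes, 10 were called lower only, 9 higher only and 1 never. The lower-only probes were 6 of Ppia, 2 of Dnajc5 and those of Fkbp4 and Cct5, whereas each higher-only probe stood for a different gene. By gene, more of the cytosolic set was therefore called higher only than lower only. Of all 5010 tested probes over the same 8 comparisons, 43.8% were called lower only, 47.9% higher only, 3.17% both ways and 5.09% never. Of the 43 tested members, 4 were called lower in all 8 comparisons, all of them ER probes, beside 7.8% of all tested probes. Called higher in all 8 were 0 members, beside 5.23% of all tested probes. The median ER change was lower than that of all probes at every time in both genotypes, between -1.13 (day 2) and -0.43 (day 3) in WT glands and between -0.67 (day 1) and -0.46 (day 4) in E2F3 +/- glands. The median cytosolic change was also lower than that of all probes at every time in both genotypes. It lay between -0.62 (day 2) and -0.23 (day 4) in WT glands and between -0.37 (day 2) and -0.05 (day 3) in E2F3 +/- glands. This median runs over probes, and the 6 Ppia and 2 Dnajc5 probes were below 0 in every comparison. By gene the balance was different. At WT day 2, 9 of the 14 tested cytosolic genes lay above 0, and at E2F3 +/- day 3, 10 did, with the others below. A median by gene was not computed. Over all tested probes the median change ran from -0.07 to 0.14. By role, the median change of the 7 ER quality control and translocon probes lay between -1.27 and -0.83 in all 8 comparisons. The 9 ER isomerase and oxidase probes had medians of -0.13 at WT day 1 and 0.53 to 0.64 at WT days 2 to 4, and of 0.29 at day 1 and 0.72 to 0.94 at days 2 to 4 in E2F3 +/- glands. The 5 small heat shock protein and TRiC probes had medians of 0.23 to 0.74, and the 8 cytosolic FKBP and cyclophilin probes medians of -0.87 to -0.26. These medians describe small lists that share arrays and, for Ppia, a gene. In gland RNA, fewer cells of a type and less RNA per cell cannot be told apart.

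**Figure D2:**
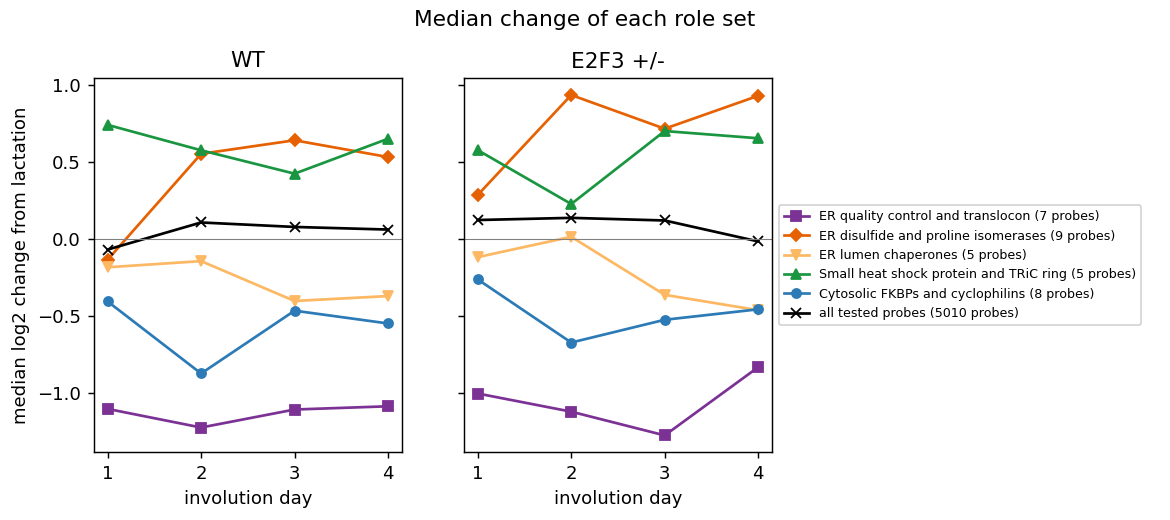
Median log2 change from lactation (vertical axis) against involution day (horizontal axis) for 5 role sets and for all 5010 tested probes, WT on the left and E2F3 +/- on the right. The ER quality control and translocon set lies lowest at every day in both panels, between -1.27 and -0.83, and all tested probes stay between -0.07 and 0.14.

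The genes of the signal sequence receptor complex (also called TRAP), which sits beside the Sec61 channel and helps secretory proteins enter the ER, were lower after lactation. All 4 genes were measured, and of their 4 tested probes 3 or 4 were called lower in each of the 8 comparisons and 0 were called higher. Over all tested probes, 18.2% to 37.4% were called lower and 17.4% to 34.2% higher in these comparisons. Ssr4 (probe M300000264), the delta subunit, fell most steadily. Ssr4 in WT glands read 7.81, 8.25 and 7.77 in lactation, 2.2, 1.9 and 1.57 on day 1, 2.23, 1.49 and 1.03 on day 2, 1.44, 1.34 and 1.5 on day 3 and 0.673, 0.908 and 0.717 on day 4. Ssr4 in E2F3 +/- glands read 7.53, 10.6 and 10.6 in lactation, 1.97, 2.55 and 1.51 on day 1, 1.94, 1.77 and 1.44 on day 2, 1.01, 1.37 and 0.676 on day 3 and 0.829, 0.743 and 1.43 on day 4. Every involution array lay below every lactation array of its genotype. The log2 difference from lactation was -2.08 ± 0.29 (SE; adjusted p = 5.98e-06) at WT day 1 and -3.39 ± 0.29 (SE; adjusted p = 5.01e-09) at WT day 4, a 10.5-fold lower ratio. In E2F3 +/- glands it was -2.27 ± 0.29 (SE; adjusted p = 2.24e-06) at day 1 and -3.30 ± 0.29 (SE; adjusted p = 8.82e-09) at day 4. The Ssr4 calls held without any single array in all 8 comparisons. The other Ssr4 probe (M300000265) had missing values on 9 arrays and was not tested, and it read 2.75 on the single WT lactation array with a value and 1.38 and 2.41 at WT day 4, a smaller difference than on the tested probe.

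Ssr1, the alpha subunit, was called lower in all 8 comparisons by smaller amounts. Ssr1 in WT glands read 1.4, 1.68 and 1.81 in lactation, 1.17, 0.855 and 0.718 on day 1, 0.781, 0.793 and 1.02 on day 2, 1.12, 1.04 and 1.06 on day 3 and 1.14, 0.609 and 1.06 on day 4. Ssr1 in E2F3 +/- glands read 1.26, 1.41 and 1.49 in lactation, 0.828, 0.833 and 0.734 on day 1, 0.777, 0.709 and 0.77 on day 2, 0.61, 1.03 and 0.734 on day 3 and 0.976, 0.763 and 1.17 on day 4. The lactation and involution arrays did not overlap in either genotype. The Ssr1 differences ran from -0.60 at WT day 3 to -0.92 at WT day 2, and from -0.54 to -0.88 in E2F3 +/- glands (limma adjusted p from 0.00224 to 0.0498). The calls at WT day 3 and E2F3 +/- day 4 each failed on leaving out any 1 of 5 arrays (adjusted p up to 0.148 and 0.206) and without centring (0.132 and 0.292), and that at WT day 4 without WT day 4 replicate 2 (adjusted p = 0.052). Ssr3, the gamma subunit, was called lower at all 4 days in WT glands (-0.85 to -1.20) and at days 1 and 2 in E2F3 +/- glands (-0.69 and -0.78). At E2F3 +/- days 3 and 4 the Ssr3 differences were -0.61 (adjusted p = 0.0536) and -0.19 (adjusted p = 0.543), the latter 0.055 without centring. The Ssr3 calls at E2F3 +/- days 1 and 2 and at WT day 1 failed on leaving out any 1 of 6, 4 and 3 arrays (adjusted p up to 0.152, 0.109 and 0.0654), and those at day 1 also without centring (0.0988 and 0.0569).

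Ssr2, the beta subunit, had the widest spread of the 4. Ssr2 in WT glands read 2.03, 2.61 and 2.35 in lactation, 1.36, 1.24 and 1.04 on day 1, 0.393, 0.481 and 0.0648 on day 2, 0.896, 0.825 and 1.18 on day 3 and 0.788, 0.549 and 0.657 on day 4. Ssr2 in E2F3 +/- glands read 2.35, 2.06 and 2.31 in lactation, 0.997, 1.07 and 0.815 on day 1, 0.571, 0.694 and 1.39 on day 2, 1.13, 0.14 and 0.288 on day 3 and 0.115, 0.0252 and 0.769 on day 4. Single arrays set the lowest points: WT day 2 replicate 3 lay far below the other 2 arrays of its group, and E2F3 +/- day 4 held both the lowest ratio of all 30 arrays and a ratio of 0.769. That lowest ratio, 0.0252, stood near the 0.01 taken as missing. Ssr2 was called lower at WT day 2 (log2 difference -3.33 ± 0.81 (SE; adjusted p = 0.00135)), at E2F3 +/- day 3 (-2.65 ± 0.81 SE, adjusted p = 0.00787) and at E2F3 +/- day 4 (-4.10 ± 0.81 SE, adjusted p = 0.000202). The day 3 call failed without E2F3 +/- day 3 replicate 2 (adjusted p = 0.0605), and the other 2 calls held without any single array.

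The 3 Edem genes, whose products trim mannose from misfolded glycoproteins and pass them to ER-associated degradation, followed 3 courses. Edem3 was called lower in all 8 comparisons. Edem3 in WT glands read 2.2, 2.53 and 2.58 in lactation, 1.11, 1.08 and 1.12 on day 1, 0.998, 1.09 and 1.04 on day 2, 0.889, 0.946 and 1.01 on day 3 and 1.11, 1.1 and 1.23 on day 4. Edem3 in E2F3 +/- glands read 3.56, 2.35 and 2.92 in lactation, 0.801, 0.897 and 1.37 on day 1, 1.26, 0.871 and 1.36 on day 2, 1.19, 1.39 and 1.04 on day 3 and 1.72, 1.88 and 1.34 on day 4. No involution array reached the lactation arrays of its genotype. The Edem3 log2 difference was -1.14 ± 0.21 (SE; adjusted p = 0.000207) at WT day 1 and -1.36 ± 0.21 (SE; adjusted p = 3.29e-05) at WT day 3. In E2F3 +/- glands it was -1.55 ± 0.21 (SE; adjusted p = 6.16e-06) at day 1 and -0.83 ± 0.21 (SE; adjusted p = 0.00182) at day 4. The Edem3 calls held without any single array in all 8 comparisons.

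Edem2 fell further and less evenly. Edem2 in WT glands read 3.13, 2.72 and 3.5 in lactation, 1.2, 1.24 and 1.07 on day 1, 0.682, 0.909 and 0.206 on day 2, 1.87, 1.29 and 1.61 on day 3 and 1.42, 0.936 and 1.27 on day 4. Edem2 in E2F3 +/- glands read 3.01, 2.66 and 2.97 in lactation, 1.37, 1.45 and 1.49 on day 1, 1.09, 1.2 and 1.76 on day 2, 1.26, 0.435 and 0.732 on day 3 and 0.372, 0.294 and 1.61 on day 4. The lactation arrays of both genotypes stood above all involution arrays, and the spread was widest at WT day 2 and E2F3 +/- day 4. Edem2 was called lower at WT days 1, 2 and 4, with -2.62 ± 0.49 (SE; adjusted p = 0.000109) at day 2, and at E2F3 +/- days 3 (-1.96 ± 0.49 SE, adjusted p = 0.00182) and 4 (-2.36 ± 0.49 SE, adjusted p = 0.00029). At WT day 3 the difference was -0.98 (adjusted p = 0.107) and at E2F3 +/- days 1 and 2 it was -1.002 (adjusted p = 0.0914) and -1.12 (adjusted p = 0.0615). The call at WT day 1 failed on leaving out any 1 of 5 arrays (adjusted p up to 0.0755), and that at WT day 4 without WT lactation replicate 3 (0.0595) or WT day 4 replicate 2 (0.0698).

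Edem1 was the 1 member called both ways. Edem1 in WT glands read 0.814, 0.937 and 0.916 in lactation, 0.384, 0.397 and 0.463 on day 1, 0.865, 2.63 and 1.42 on day 2, 0.727, 0.579 and 0.902 on day 3 and 0.891, 0.933 and 0.752 on day 4. Edem1 in E2F3 +/- glands read 1.07, 1.01 and 1.01 in lactation, 0.696, 0.388 and 0.581 on day 1, 0.707, 0.626 and 0.811 on day 2, 0.71, 1.11 and 0.715 on day 3 and 1.06, 1.03 and 1.26 on day 4. At day 1 all arrays of both genotypes lay below lactation, and at WT day 2 the 3 arrays spread from 0.865 to 2.63 and overlapped lactation. The Edem1 difference was -1.10 ± 0.29 (SE; adjusted p = 0.00442) at WT day 1 and -0.93 ± 0.29 (SE; adjusted p = 0.0127) at E2F3 +/- day 1. At WT day 2 it was 0.74 ± 0.29 (SE; adjusted p = 0.0279), a call failing without WT day 2 replicate 2 (adjusted p = 0.283), without WT lactation replicate 1 (0.0772) or 3 (0.0519), with array weights (0.0663) and when only the groups compared were fitted (0.155). The E2F3 +/- day 1 call failed without E2F3 +/- day 1 replicate 2 (adjusted p = 0.0779), and the WT day 1 call held without any single array.

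**Figure D3:**
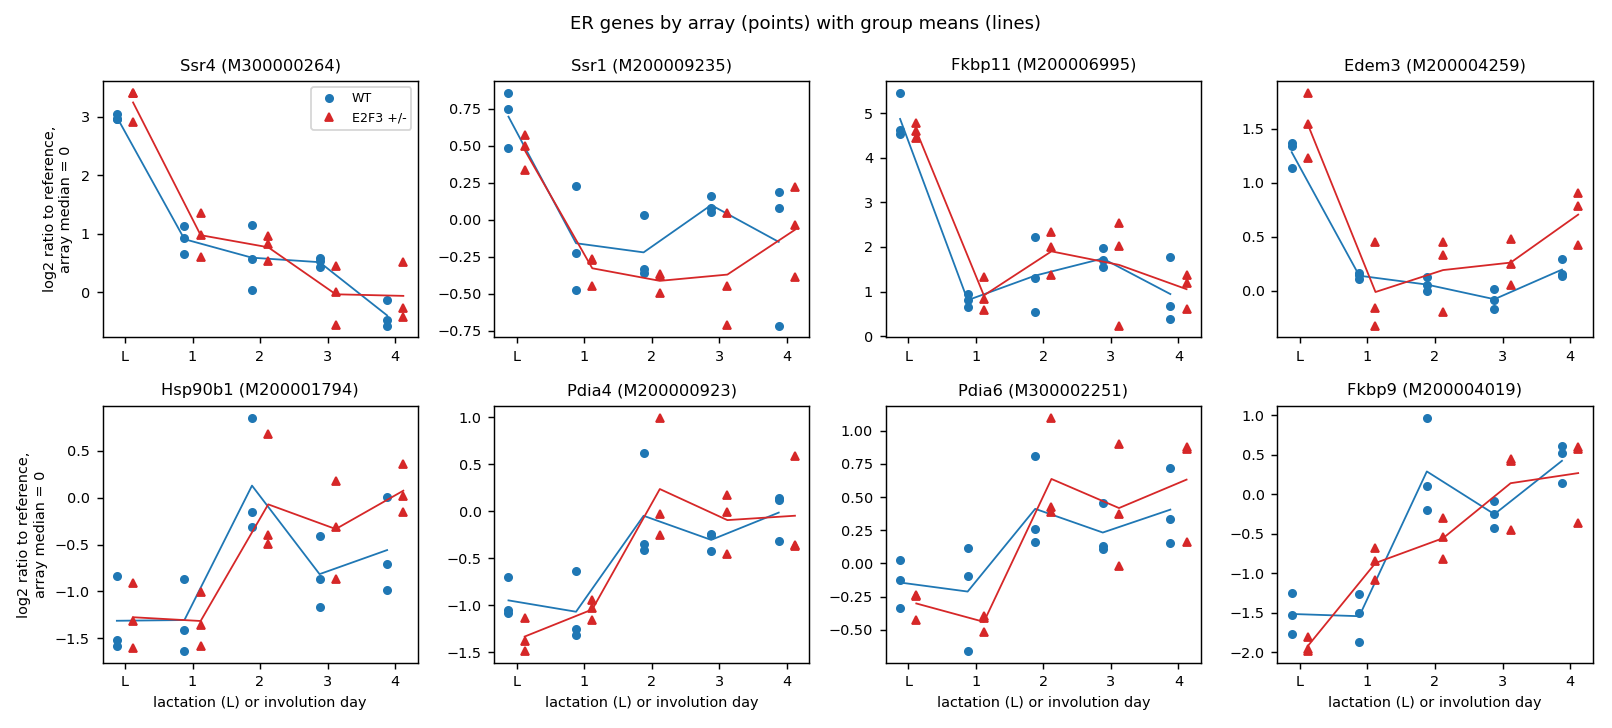
Log2 ratio to reference with the array median at 0 (vertical axis) on each of the 30 arrays in lactation (L) and at involution days 1 to 4 (horizontal axis) for 8 ER probes; circles are WT arrays, triangles E2F3 +/- arrays, and lines join group means of 3 arrays. Ssr4, Ssr1, Fkbp11 and Edem3 start high in lactation and lie lower from day 1, and Hsp90b1, Pdia4, Pdia6 and Fkbp9 lie higher at day 2 than in lactation.

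Among the lumenal chaperones and their J proteins, Hsp90b1 rose while Dnajc3 and Dnajc10 fell. Hsp90b1 (GRP94) is the ER member of the Hsp90 family. Dnajc3 (P58IPK) and Dnajc10 (ERdj5) are lumenal J proteins that work with BiP. Hsp90b1 and Dnajc3, with the disulfide isomerase Pdia6, were the 3 of 18 ER genes with a promoter sequence whose promoter held the ER stress response element, the letters CCAAT, any 9 bases and CCACG on either strand, known as a binding site of the unfolded protein response factor ATF6 with NF-Y. It occurred in 0.119% of the 32851 RefSeq promoter windows (250 bases before to 50 after the start, build GRCm38.p6), in 0 of 12 cytosolic and in 0 of 3 mitochondrial member genes with a sequence. The 250 bases before the start are shown for these 3 genes, 5′ to 3′ on the gene's strand, with the element in capitals, because the genes that carry it moved in opposite directions. A match describes these letters and is no measured site. Hsp90b1 holds the element at 212 to 194 and again at 107 to 89 bases before its start, in chr10:86705445-86705694 on the minus strand. Pdia6 holds it at 98 to 80 bases before the start, in chr12:17266339-17266588 on the plus strand, and Dnajc3 at 105 to 87 bases, in chr14:118937682-118937931 on the plus strand. The element nearer to the start of Hsp90b1 lies on the opposite strand, so its capitals show the reverse complement of the searched letters. The letters ATTGG, any base and CCACG (ERSE-II), and TGACGTGG (UPRE core), were searched as further unfolded protein response elements. Each was found in 0 of the 18 ER genes, beside 0.0365% and 0.676% of all promoter windows.
Hsp90b1: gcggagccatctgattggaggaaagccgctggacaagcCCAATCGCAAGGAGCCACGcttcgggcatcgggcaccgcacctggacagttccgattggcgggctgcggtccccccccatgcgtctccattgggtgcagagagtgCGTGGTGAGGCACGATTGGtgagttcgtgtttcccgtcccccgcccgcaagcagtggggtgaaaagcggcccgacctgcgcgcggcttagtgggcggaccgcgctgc
Pdia6: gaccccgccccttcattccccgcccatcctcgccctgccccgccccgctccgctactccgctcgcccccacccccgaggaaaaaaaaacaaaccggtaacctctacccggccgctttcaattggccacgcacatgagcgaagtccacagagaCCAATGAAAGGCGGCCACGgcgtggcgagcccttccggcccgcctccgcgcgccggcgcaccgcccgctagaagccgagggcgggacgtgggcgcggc
Dnajc3: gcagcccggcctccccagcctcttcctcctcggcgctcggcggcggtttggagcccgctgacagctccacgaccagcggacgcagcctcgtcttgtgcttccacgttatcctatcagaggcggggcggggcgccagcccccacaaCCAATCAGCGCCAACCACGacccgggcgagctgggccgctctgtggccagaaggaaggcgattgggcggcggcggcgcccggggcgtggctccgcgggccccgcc

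Hsp90b1 overlapped its lactation level at day 1 and was higher at day 2. Hsp90b1 in WT glands read 0.335, 0.348 and 0.56 in lactation, 0.377, 0.322 and 0.547 on day 1, 0.807, 1.8 and 0.899 on day 2, 0.549, 0.444 and 0.754 on day 3 and 0.506, 0.613 and 1.01 on day 4. Hsp90b1 in E2F3 +/- glands read 0.402, 0.33 and 0.531 in lactation, 0.333, 0.392 and 0.498 on day 1, 0.758, 0.711 and 1.6 on day 2, 0.547, 1.13 and 0.807 on day 3 and 1.01, 0.902 and 1.28 on day 4. The day 2 arrays of both genotypes lay above all lactation arrays, whereas the day 1 arrays overlapped them. The log2 difference at day 1 was 0.01 in WT (adjusted p = 0.986) and -0.04 in E2F3 +/- glands (adjusted p = 0.931), and the sign of the first turned after quantile normalization. At day 2 it was 1.44 ± 0.36 (SE; adjusted p = 0.00174) in WT, a 2.72-fold rise, and 1.20 ± 0.36 (SE; adjusted p = 0.0105) in E2F3 +/- glands. At E2F3 +/- days 3 and 4 it was 0.94 ± 0.36 (SE; adjusted p = 0.0272) and 1.35 ± 0.36 (SE; adjusted p = 0.00263). At WT days 3 and 4 it was 0.50 (adjusted p = 0.258) and 0.75 (adjusted p = 0.077). The calls at WT day 2 and E2F3 +/- day 4 held without any single array. The call at E2F3 +/- day 2 failed without E2F3 +/- lactation replicate 2 (adjusted p = 0.0502) or day 2 replicate 3 (0.0815), and that at E2F3 +/- day 3 on leaving out any 1 of 4 arrays (up to 0.14).

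Dnajc3, which also restrains the stress kinase PERK, went the other way. Dnajc3 in WT glands read 1.87, 1.95 and 2.17 in lactation, 1.06, 1.45 and 1.21 on day 1, 0.821, 0.648 and 0.732 on day 2, 1.56, 1.14 and 1.93 on day 3 and 0.756, 1.11 and 1.22 on day 4. Dnajc3 in E2F3 +/- glands read 2.09, 2.27 and 2.42 in lactation, 0.991, 1.26 and 1.17 on day 1, 0.97, 1.55 and 1.76 on day 2, 1.37, 0.839 and 0.939 on day 3 and 0.745, 1.19 and 1.73 on day 4. All WT arrays of days 1, 2 and 4 and all E2F3 +/- involution arrays lay below lactation. The difference was -1.45 ± 0.28 (SE; adjusted p = 0.000162) at WT day 2, -0.99 ± 0.28 (SE; adjusted p = 0.00569) at WT day 4 and -1.14 ± 0.28 (SE; adjusted p = 0.00168) at E2F3 +/- day 3. Dnajc3 was called lower at all 4 days in E2F3 +/- glands and at days 2 and 4 in WT glands. The E2F3 +/- day 2 call failed on leaving out any 1 of 5 arrays (adjusted p up to 0.224) and after quantile normalization (0.0603). Dnajc10, a disulfide reductase, was called lower at WT days 2, 3 and 4 (-1.17, -0.97 and -1.26) and at E2F3 +/- day 3 (-1.71 ± 0.38 SE, adjusted p = 0.00101). WT lactation, WT day 4, E2F3 +/- lactation and E2F3 +/- day 2 each had 2 of 3 values for this Dnajc10 probe, and its calls at WT days 2, 3 and 4 failed without WT lactation replicate 3 (adjusted p = 0.0658, 0.174 and 0.0719), that at day 3 also without any other array compared or without centring (0.0789), and that at day 2 after quantile normalization (0.0632). Dnajb9 and Dnajc1, 2 further J proteins of the ER, were called in 0 of the 8 comparisons by limma, with differences from -0.39 to 0.49 for Dnajb9 and from -0.54 to 0.34 for Dnajc1.

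The ER isomerases held both the deepest fall in WT glands and the largest rises of the folding genes in either genotype. Fkbp11, an ER proline isomerase, was far above the reference in lactation glands. Fkbp11 in WT glands read 44.0, 23.1 and 24.6 in lactation, 1.76, 1.57 and 1.93 on day 1, 4.66, 1.45 and 2.48 on day 2, 2.92, 3.26 and 3.91 on day 3 and 1.3, 1.6 and 3.42 on day 4. Fkbp11 in E2F3 +/- glands read 27.3, 21.7 and 24.4 in lactation, 1.77, 2.52 and 1.49 on day 1, 3.97, 2.6 and 5.04 on day 2, 4.04, 5.84 and 1.17 on day 3 and 2.27, 1.52 and 2.58 on day 4. The highest involution ratio was 5.84 and the lowest lactation ratio 21.7, so the groups were far apart. The log2 difference was -4.07 ± 0.46 (SE; adjusted p = 3.92e-07) at WT day 1, a 16.7-fold fall, and -3.69 ± 0.46 (SE; adjusted p = 1.81e-06) at E2F3 +/- day 1, a 12.9-fold fall. It ran from -3.13 to -3.93 at WT days 2 to 4 and from -2.71 to -3.55 at E2F3 +/- days 2 to 4, and all 8 calls held without any single array.

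Fkbp9, another proline isomerase of the ER, rose. Fkbp9 in WT glands read 0.42, 0.345 and 0.294 in lactation, 0.418, 0.352 and 0.273 on day 1, 0.871, 1.07 and 1.95 on day 2, 0.946, 0.838 and 0.744 on day 3 and 1.43, 1.1 and 1.52 on day 4. Fkbp9 in E2F3 +/- glands read 0.284, 0.252 and 0.256 in lactation, 0.621, 0.556 and 0.472 on day 1, 0.688, 0.808 and 0.564 on day 2, 0.728, 1.37 and 1.34 on day 3 and 1.49, 1.51 and 0.773 on day 4. The WT day 1 arrays overlapped lactation, and all later WT arrays and all E2F3 +/- involution arrays lay above it. The difference was -0.03 at WT day 1 (adjusted p = 0.943), then 1.80 ± 0.30 (SE; adjusted p = 2.91e-05) at WT day 2 and 1.94 ± 0.30 (SE; adjusted p = 1.98e-05) at WT day 4. In E2F3 +/- glands it was 1.05 ± 0.30 (SE; adjusted p = 0.00762) at day 1 and 2.19 ± 0.30 (SE; adjusted p = 3.21e-06) at day 4, a 4.56-fold rise. The 7 calls held without any single array. The difference between the genotypes' day 1 responses (1.08 on the log2 scale, adjusted p = 0.438) was not called.

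Both probes of the disulfide isomerase Pdia4 (ERp72) rose at days 2 and 4 in WT glands and at days 2, 3 and 4 in E2F3 +/- glands. Pdia4 (M300004801) in WT glands read 0.543, 0.584 and 0.821 in lactation, 0.6, 0.485 and 0.678 on day 1, 1.03, 2.08 and 1.48 on day 2, 1.04, 0.849 and 1.14 on day 3 and 1.19, 1.02 and 1.12 on day 4. Pdia4 (M300004801) in E2F3 +/- glands read 0.396, 0.346 and 0.422 in lactation, 0.547, 0.664 and 0.541 on day 1, 0.972, 1.05 and 1.92 on day 2, 0.878, 1.75 and 1.3 on day 3 and 1.26, 1.08 and 1.78 on day 4. From day 2 every array lay above the lactation arrays of its genotype. For this probe the difference was 1.20 ± 0.29 (SE; adjusted p = 0.00116) at WT day 2 and 1.69 ± 0.29 (SE; adjusted p = 8.18e-05), 1.70 ± 0.29 (SE; adjusted p = 5.18e-05) and 1.80 ± 0.29 (SE; adjusted p = 2.3e-05) at E2F3 +/- days 2, 3 and 4. The other Pdia4 probe (M200000923) gave 0.90 at WT day 2 and 1.57 at E2F3 +/- day 2. The WT day 4 calls of M300004801 and M200000923 failed on leaving out any 1 of 4 and 3 arrays (adjusted p up to 0.0857 and 0.0519), as did the WT day 2 call of M200000923 without WT lactation replicate 2 (0.0515) or day 2 replicate 2 (0.124), or with only the groups compared in the fit (0.0598). Pdia6 (P5), whose promoter is printed above, was called higher at E2F3 +/- days 2, 3 and 4 (0.94, 0.72 and 0.93; adjusted p = 0.00735, 0.0224 and 0.00409). At WT days 2 and 4 the Pdia6 differences were 0.56 (adjusted p = 0.0699) and 0.55 (adjusted p = 0.079). Of the 3 E2F3 +/- calls of Pdia6, that at day 4 held without any single array, that at day 2 failed without E2F3 +/- day 2 replicate 3 (adjusted p = 0.0523), and that at day 3 failed without day 3 replicate 2 (0.147) or lactation replicate 2 (0.0679) or with only the groups compared in the fit (0.0528).

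The remaining ER isomerases and the oxidase divided in the same manner. Ero1a, which reoxidises disulfide isomerases, was called lower at WT day 2 (-1.60 ± 0.42 SE, adjusted p = 0.00249) and at E2F3 +/- days 3 (-1.51 ± 0.42 SE, adjusted p = 0.00436) and 4 (-1.37), from lactation ratios of 0.117 to 0.137 in WT and 0.0999 to 0.124 in E2F3 +/- glands. Ratios this low lie toward the 0.01 taken as missing, so small absolute steps weigh on these log2 differences. The E2F3 +/- day 4 call of Ero1a failed without E2F3 +/- day 4 replicate 2 (adjusted p = 0.067), after quantile normalization (0.0617) and with only the groups compared in the fit (0.0631). Ppib (cyclophilin B), which isomerises prolines of collagen and other secreted proteins, was called lower at WT day 2 (-1.13) and at E2F3 +/- days 3 (-1.34) and 4 (-1.85 ± 0.41 SE, adjusted p = 0.000611). Its WT day 2 call failed without WT day 2 replicate 3 (adjusted p = 0.236) or WT lactation replicate 3 (0.0562), with array weights (0.059) and with only the groups compared in the fit (0.0873), and its E2F3 +/- day 3 call without E2F3 +/- day 3 replicate 2 (0.0592). Ppic (cyclophilin C) was called higher at WT day 3 (0.92) and at E2F3 +/- days 2 (1.24 ± 0.34 SE, adjusted p = 0.00552), 3 (1.11) and 4 (1.33 ± 0.34 SE, adjusted p = 0.00173). The Ppic call at WT day 3 failed on leaving out any 1 of 5 arrays (adjusted p up to 0.145), and that at E2F3 +/- day 3 without E2F3 +/- day 3 replicate 3 (0.051). Fkbp14, a collagen-binding proline isomerase, was called at WT day 2 alone (-1.52 ± 0.59 SE, adjusted p = 0.0284), a call failing on leaving out any 1 of 4 arrays (up to 0.099). Fkbp14 in WT glands read 1.16, 0.872 and 0.678 in lactation, 2.36, 1.96 and 1.64 on day 1, 0.287, 0.446 and 0.229 on day 2, 2.73, 1.35 and 1.85 on day 3 and 0.615, 0.36 and 0.321 on day 4. The WT arrays lay above lactation at days 1 and 3 and below it at days 2 and 4, without overlap.

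In the cytosolic set the single Hsp90 probe stood out by its timing. Hsp90aa1, the stress-inducible cytosolic Hsp90, was high at WT day 1. Hsp90aa1 in WT glands read 0.336, 0.452 and 0.622 in lactation, 1.3, 0.822 and 1.85 on day 1, 0.297, 0.363 and 0.242 on day 2, 0.45, 0.312 and 0.486 on day 3 and 0.369, 0.409 and 0.523 on day 4. Hsp90aa1 in E2F3 +/- glands read 0.389, 0.23 and 0.429 in lactation, 0.412, 0.404 and 0.497 on day 1, 0.276, 0.289 and 0.407 on day 2, 0.499, 0.414 and 0.431 on day 3 and 0.531, 0.291 and 0.568 on day 4. The 3 WT day 1 arrays lay above all other arrays of both genotypes. The difference from lactation was 1.46 ± 0.31 (SE; adjusted p = 0.000797) at WT day 1, a 2.76-fold rise that held without any single array. At E2F3 +/- day 1 it was 0.37 (adjusted p = 0.319), and in the other 6 comparisons it ran from -0.62 to 0.40 with no call. The luminal epithelial markers were also highest at WT day 1, with a summed ratio over the tested markers of 276 to 557 per array against 15.4 to 52.1 in WT lactation and 122 to 166 at E2F3 +/- day 1, and their part in the Hsp90aa1 value was not tested.

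Both probes of Dnajc5, the cysteine string protein that serves vesicle exocytosis, fell. Dnajc5 (M300000124) in WT glands read 0.87, 0.849 and 1.11 in lactation, 0.797, 0.869 and 0.82 on day 1, 0.243, 0.383 and 0.185 on day 2, 0.854, 0.47 and 0.827 on day 3 and 0.444, 0.447 and 0.285 on day 4. Dnajc5 (M300000124) in E2F3 +/- glands read 1.04, 1.07 and 1.59 in lactation, 0.568, 0.678 and 0.691 on day 1, 0.45, 0.607 and 0.729 on day 2, 0.5, 0.194 and 0.255 on day 3 and 0.238, 0.142 and 0.591 on day 4. In WT glands day 2 was the lowest group and day 3 overlapped lactation, whereas in E2F3 +/- glands days 3 and 4 were the lowest. Dnajc5 (M300000125) in WT glands read 1.05, 0.878 and 1.26 in lactation, 0.72, 0.709 and 1.01 on day 1, 0.193, 0.336 and 0.249 on day 2, 0.465, 0.376 and 0.425 on day 3 and 0.549, 0.204 and 0.251 on day 4. Dnajc5 (M300000125) in E2F3 +/- glands read 0.579, 0.853 and 1.27 in lactation, 0.378, 0.459 and 0.551 on day 1, 0.286, 0.451 and 0.604 on day 2, 0.514, 0.166 and 0.156 on day 3 and 0.448, 0.267 and 0.383 on day 4. The second probe showed WT day 2 as its lowest WT group too, with day 3 below lactation on all 3 arrays. At WT day 2 the differences were -1.86 ± 0.40 (SE; adjusted p = 0.000424) and -2.06 ± 0.40 (SE; adjusted p = 0.000192) for the 2 probes. At WT day 3 they were -0.43 (adjusted p = 0.36) and -1.32 ± 0.40 (SE; adjusted p = 0.0129), so that the probes disagreed on the call. At E2F3 +/- day 3 both were called, with -2.06 ± 0.40 (SE; adjusted p = 0.000202) and -1.85 ± 0.40 (SE; adjusted p = 0.000637). Both calls at E2F3 +/- day 2 (-1.05 and -1.003) failed on leaving out any 1 of 4 arrays (adjusted p up to 0.129 and 0.199), the second also without centring (0.0539). Single arrays also ended the WT day 4 call of M300000124 (without WT day 4 replicate 3, 0.0501) and the WT day 3 and E2F3 +/- day 4 calls of M300000125 (without lactation replicate 3 of the genotype, 0.0527 and 0.0574).

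The other cytosolic J proteins were called higher or not at all. Dnajb6, a J protein that keeps proteins from aggregating, rose at day 1. Dnajb6 in WT glands read 1.03, 1.22 and 1.31 in lactation, 2.27, 1.96 and 1.97 on day 1, 1.55, 1.11 and 1.67 on day 2, 1.61, 1.32 and 1.46 on day 3 and 0.76, 1.39 and 1.27 on day 4. Dnajb6 in E2F3 +/- glands read 1.17, 1.28 and 1.1 in lactation, 1.76, 1.69 and 1.74 on day 1, 1.14, 1.29 and 1.38 on day 2, 1.29, 1.59 and 1.14 on day 3 and 1.52, 1.63 and 1.52 on day 4. The day 1 arrays of both genotypes lay above their lactation arrays and the later arrays of WT glands came back toward them. The difference was 0.81 ± 0.21 (SE; adjusted p = 0.00414) at WT day 1 and 0.55 ± 0.21 (SE; adjusted p = 0.0359) at E2F3 +/- day 1. The first held without any single array and the second failed on leaving out any 1 of the 6 arrays compared (adjusted p up to 0.104). Dnajb6 was the 1 of 12 cytosolic genes with a promoter sequence that held the heat shock element searched for, GAA, any 2 bases, TTC, any 2 bases and GAA on either strand, which occurred in 0.603% of all promoter windows and in 0 of 18 ER genes. The 250 bases before its start in RefSeq (build GRCm38.p6, chr5:29735648-29735897, plus strand) are shown with the element in capitals, at 46 to 34 bases before the start. They are shown because this was the single match among the 12 cytosolic genes searched. Hsp90aa1, Dnajc5 and Cct4 had no promoter sequence and were not searched. A match describes these letters, and its part in the Dnajb6 values was not tested. RefSeq gives a second start, from which the same element lies at 127 to 115 bases.
Dnajb6: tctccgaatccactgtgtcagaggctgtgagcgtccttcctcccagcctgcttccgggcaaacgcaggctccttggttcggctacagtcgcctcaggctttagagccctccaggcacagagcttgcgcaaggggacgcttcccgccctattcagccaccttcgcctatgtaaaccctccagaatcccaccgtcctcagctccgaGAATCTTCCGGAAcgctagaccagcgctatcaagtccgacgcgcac
Dnajb5, a further J protein of the cytosol, was called higher at day 2 in both genotypes (1.26 and 1.20; adjusted p = 0.0112 and 0.0227), calls failing without WT lactation replicate 1 (0.0573) or with array weights (0.079) and on leaving out any 1 of 4 E2F3 +/- arrays (up to 0.0646). Dnajb4 was called at E2F3 +/- day 4 alone (1.18, adjusted p = 0.0167), where its 3 ratios were 1.73, 2.61 and 0.583 and overlapped lactation. The call failed on leaving out any 1 of 3 arrays (adjusted p up to 0.144) and with only the groups compared in the fit (0.0965). Dnajc8, a J protein found with the spliceosome, was called in 0 of the 8 comparisons by limma.

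**Figure D4:**
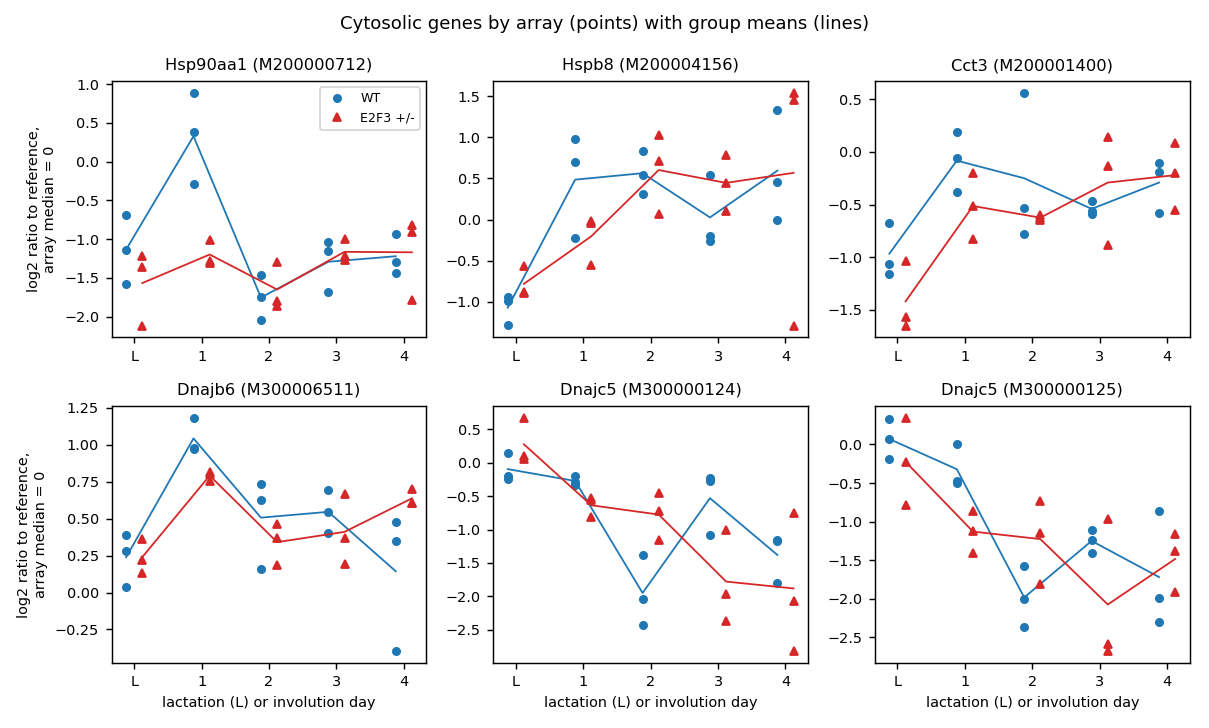
Log2 ratio to reference with the array median at 0 (vertical axis) on each array in lactation (L) and at involution days 1 to 4 (horizontal axis) for 6 cytosolic probes; circles are WT arrays, triangles E2F3 +/- arrays, and lines join group means of 3 arrays. Hsp90aa1 is high in the 3 WT day 1 arrays alone, Dnajb6 peaks at day 1 in both genotypes, and both Dnajc5 probes fall.

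Of the 4 measured subunits of TRiC, the ring that folds actin and tubulin, 3 (Cct3, Cct4 and Cct6a) had mean ratios above lactation at every day in both genotypes and Cct5 had mean ratios below it. Cct3 was called most often. Cct3 in WT glands read 0.447, 0.627 and 0.478 in lactation, 1.14, 0.768 and 0.959 on day 1, 0.583, 0.69 and 1.48 on day 2, 0.676, 0.724 and 0.664 on day 3 and 0.669, 0.928 and 0.879 on day 4. Cct3 in E2F3 +/- glands read 0.337, 0.318 and 0.487 in lactation, 0.872, 0.7 and 0.562 on day 1, 0.64, 0.66 and 0.646 on day 2, 0.543, 1.11 and 0.909 on day 3 and 0.872, 1.06 and 0.683 on day 4. All E2F3 +/- involution arrays lay above lactation, and at WT day 2 the arrays overlapped it. The Cct3 difference was 0.88 ± 0.30 (SE; adjusted p = 0.0235) at WT day 1, 1.13 ± 0.30 (SE; adjusted p = 0.00299) at E2F3 +/- day 3 and 1.20 ± 0.30 (SE; adjusted p = 0.00148) at E2F3 +/- day 4. The last pair held without any single array. The calls at WT days 1 and 2 and E2F3 +/- days 1 and 2 each failed without several single arrays (adjusted p up to 0.101, 0.346, 0.0875 and 0.116). The 0.346 at WT day 2 came without WT day 2 replicate 3, an array that stood apart, and that call was also lost with array weights (0.225) and with only the groups compared in the fit (0.151).

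Cct5 ratios were low in all groups. Cct5 in WT glands read 0.403, 0.484 and 0.481 in lactation, 0.369, 0.382 and 0.566 on day 1, 0.242, 0.302 and 0.239 on day 2, 0.424, 0.279 and 0.357 on day 3 and 0.352, 0.331 and 0.376 on day 4. Cct5 in E2F3 +/- glands read 0.534, 0.468 and 0.498 in lactation, 0.398, 0.405 and 0.249 on day 1, 0.298, 0.339 and 0.337 on day 2, 0.469, 0.308 and 0.515 on day 3 and 0.35, 0.265 and 0.232 on day 4. The WT day 2 and E2F3 +/- day 4 arrays lay below all lactation arrays of their genotype. The Cct5 difference was -0.81 ± 0.23 (SE; adjusted p = 0.00503) at WT day 2, -0.62 at E2F3 +/- day 2 (adjusted p = 0.0348) and -0.84 ± 0.23 (SE; adjusted p = 0.00348) at E2F3 +/- day 4. After quantile normalization the WT day 2 and E2F3 +/- day 4 calls were lost (adjusted p = 0.204 and 0.0873). The E2F3 +/- day 2 call failed on leaving out any 1 of the arrays compared (up to 0.104) and without centring (0.0538). At WT day 1 the Cct5 difference was -0.08 (adjusted p = 0.799) and was 0.04 without centring. Cct6a was called higher at days 1 and 4 in WT (0.74 and 0.65) and at days 1, 3 and 4 in E2F3 +/- glands (0.78, 0.70 and 0.66), each call failing on leaving out any 1 of 2 or 3 arrays (adjusted p up to 0.134), and those at day 4 of both genotypes and E2F3 +/- day 1 also with only the groups compared in the fit (0.0534 to 0.0759). Cct4 was called at E2F3 +/- day 4 alone (0.62, adjusted p = 0.0371, failing on leaving out any 1 of 5 arrays, up to 0.181, and with only the groups compared, 0.0866).

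Hspb8, a small heat shock protein that works with Bag3 in clearing misfolded proteins, had the largest rises of the cytosolic set. Hspb8 in WT glands read 0.504, 0.521 and 0.41 in lactation, 1.96, 0.857 and 1.63 on day 1, 1.45, 1.25 and 1.79 on day 2, 0.837, 1.45 and 0.869 on day 3 and 0.996, 1.38 and 2.51 on day 4. Hspb8 in E2F3 +/- glands read 0.677, 0.541 and 0.538 in lactation, 0.973, 0.988 and 0.683 on day 1, 2.04, 1.64 and 1.05 on day 2, 1.36, 1.08 and 1.73 on day 3 and 2.74, 2.91 and 0.409 on day 4. All involution arrays lay above lactation except E2F3 +/- day 4 replicate 3, the array that correlated least with its group. The difference was 1.56 ± 0.50 (SE; adjusted p = 0.0175) at WT day 1, 1.64 ± 0.50 (SE; adjusted p = 0.00699) at WT day 2 and 1.67 ± 0.50 (SE; adjusted p = 0.00802) at WT day 4. It was 1.38 ± 0.50 (SE; adjusted p = 0.028), 1.23 ± 0.50 (SE; adjusted p = 0.0346) and 1.35 ± 0.50 (SE; adjusted p = 0.0197) at E2F3 +/- days 2, 3 and 4. The WT day 2 call held without any single array, that at WT day 4 failed without WT day 4 replicate 3 (adjusted p = 0.0535), and each of the other 4 failed on leaving out any 1 of 3 or 4 arrays (up to 0.15). The E2F3 +/- day 4 call also failed with only the groups compared in the fit (adjusted p = 0.153). Bag3 itself, a gene outside the member families, was called lower in all 8 comparisons, from -1.30 at WT day 1 to -2.94 at WT day 2.

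Cyclophilin A, the abundant cytosolic proline isomerase, was represented by 6 probes named Ppia. At WT day 2 all 6 probes were called lower, with differences of -1.06 to -0.83, and in the other comparisons the number called lower was 1, 0 and 4 at WT days 1, 3 and 4 and 0, 4, 4 and 2 at E2F3 +/- days 1 to 4. All 6 differences were negative in each of the 8 comparisons. Over all tested probes, 33.4% were called lower at WT day 2 and 18.2% to 37.4% across the 8 comparisons. Without centring, probe M300020513 at E2F3 +/- day 4 stood at 0.057. The 6 probes share a gene and, with processed copies of Ppia known in the mouse genome, cannot be taken as 6 observations. Ppia (M300010782) in WT glands read 1.27, 1.61 and 1.42 in lactation, 1.02, 0.845 and 0.919 on day 1, 0.627, 1.0 and 0.596 on day 2, 1.12, 1.21 and 1.06 on day 3 and 0.646, 1.29 and 0.779 on day 4. Ppia (M300010782) in E2F3 +/- glands read 1.37, 1.15 and 1.19 in lactation, 0.817, 1.04 and 0.95 on day 1, 0.628, 0.629 and 0.926 on day 2, 0.654, 0.617 and 0.755 on day 3 and 0.927, 0.621 and 0.816 on day 4. At WT day 2, 2 arrays lay near 0.6 and 1 at 1.0, all below lactation. For this probe the difference was -0.99 ± 0.24 (SE; adjusted p = 0.00135) at WT day 2 and -0.88 ± 0.24 (SE; adjusted p = 0.00395) at E2F3 +/- day 3. Both calls held without any single array. Its calls at WT day 1 (failing on leaving out any 1 of the arrays compared, adjusted p up to 0.141), WT day 4 (up to 0.0953, and 0.0619 with only the groups compared in the fit) and E2F3 +/- days 2 (up to 0.0529) and 4 (up to 0.0991) did not, and those at WT day 1 and E2F3 +/- day 4 also failed without centring (0.0775 and 0.0928). Within each other group the 6 probes' changes from WT lactation differed by 0.099 to 0.475 on the log2 scale.

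**Figure D5:**
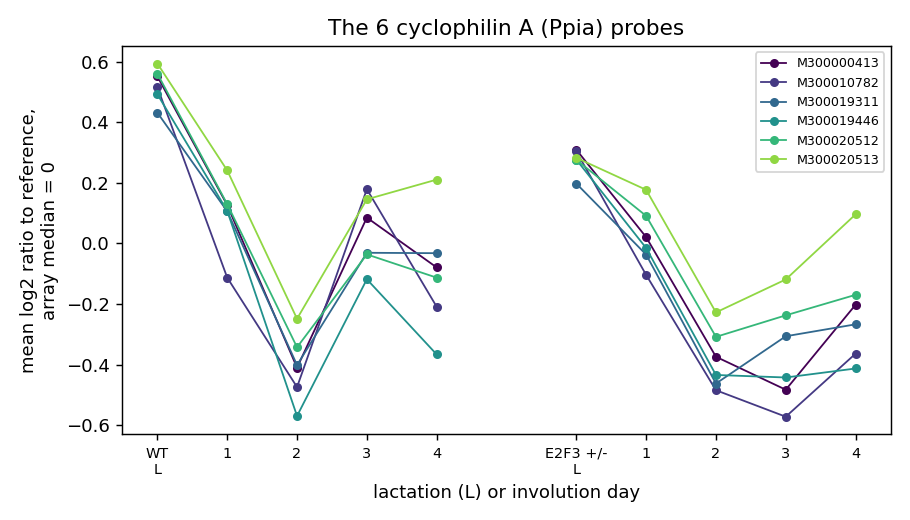
Mean log2 ratio to reference with the array median at 0 (vertical axis) for each of the 6 Ppia probes (lines) in lactation (L) and at involution days 1 to 4, WT on the left and E2F3 +/- on the right (horizontal axis); each point is a mean of 3 arrays. All 6 lines are lower at day 2 than in lactation in both genotypes.

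Among the cytosolic FKBPs, Fkbp4 (FKBP52), an Hsp90 partner in steroid receptor complexes, was called lower at WT days 2 and 3 and E2F3 +/- days 1 and 2. Fkbp4 in WT glands read 1.31, 1.58 and 1.78 in lactation, 1.26, 1.06 and 0.913 on day 1, 0.848, 0.757 and 1.56 on day 2, 0.937, 0.926 and 0.967 on day 3 and 1.36, 1.08 and 1.29 on day 4. Fkbp4 in E2F3 +/- glands read 1.31, 1.33 and 1.73 in lactation, 0.791, 0.937 and 0.612 on day 1, 0.747, 0.79 and 0.745 on day 2, 0.943, 1.23 and 0.865 on day 3 and 1.37, 1.32 and 0.942 on day 4. The WT day 2 replicate 3 value overlapped lactation, and at E2F3 +/- day 2 all 3 arrays lay below it. The difference was -0.91 ± 0.24 (SE; adjusted p = 0.00477) at E2F3 +/- day 1 and -0.93 ± 0.24 (SE; adjusted p = 0.00393) at E2F3 +/- day 2, both held without any single array. At WT days 2 and 3 it was -0.63 (adjusted p = 0.0267) and -0.71 (adjusted p = 0.0232), and each failed on leaving out any 1 of 4 arrays (up to 0.148 and 0.0939) and without centring (0.147 and 0.0846). Fkbp1a (FKBP12), the target of rapamycin and FK506, was called higher at E2F3 +/- days 3 (0.60) and 4 (0.89 ± 0.20 SE, adjusted p = 0.000772). At WT day 4 the Fkbp1a difference was 0.43 (adjusted p = 0.0749). The E2F3 +/- day 3 call of Fkbp1a failed on leaving out any 1 of 3 arrays (up to 0.0568), and the day 4 call held.

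Fkbp5 (FKBP51), the glucocorticoid-induced counterpart of Fkbp4, had values missing on 3 arrays and was not tested. Fkbp5 in WT glands read 3.02, 3.38 and 4.02 in lactation, 0.395, 0.967 and 1.08 at day 1, 0.547 and 0.286 (1 missing) at day 2, 0.734, 0.646 and 0.591 at day 3 and 1.27, 0.57 and 0.926 at day 4. Fkbp5 in E2F3 +/- glands read 4.37, 5.64 and 8.7 in lactation, 0.518, 1.0 and 0.45 at day 1, 1.26, 0.768 and 0.785 at day 2, 0.577, 0.359 and 0.498 at day 3 and 0.434 (2 missing) at day 4. Every measured involution ratio was below every lactation ratio in both genotypes. The other 3 member probes that could not be tested were the second probes of Dnajc10 (2 missing values) and Ssr4 (9 missing) and the Dnajc19 probe (15 missing). The second Dnajc10 probe read 0.379, 0.327 and 0.411 in WT lactation and 0.091, 0.103 and 0.0502 at WT day 2.

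The tested mitochondrial members were Dnaja3 (Tid1), a J protein partner of mitochondrial Hsp70, and Fkbp8 (FKBP38), which sits in the outer mitochondrial membrane. Dnaja3 fell. Dnaja3 in WT glands read 1.05, 0.989 and 1.13 in lactation, 0.427, 0.746 and 0.81 on day 1, 0.458, 0.318 and 0.312 on day 2, 0.579, 0.447 and 0.566 on day 3 and 0.679, 0.781 and 0.812 on day 4. Dnaja3 in E2F3 +/- glands read 1.05, 1.1 and 1.08 in lactation, 0.537, 0.504 and 0.466 on day 1, 0.358, 0.454 and 0.543 on day 2, 0.553, 0.18 and 0.52 on day 3 and 0.406, 0.318 and 0.575 on day 4. All involution arrays lay below the lactation arrays of their genotype. The difference was -1.57 ± 0.32 (SE; adjusted p = 0.000259) at WT day 2 and -1.003 at WT day 3, and in E2F3 +/- glands it ran from -1.10 at day 1 to -1.53 ± 0.32 (SE; adjusted p = 0.000403) at day 3. The WT day 3 call failed without WT lactation replicate 3 (adjusted p = 0.0508) or WT day 3 replicate 2 (0.0685). The other 5 Dnaja3 calls held without any single array.

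Fkbp8 was called higher at WT day 2 (0.74 ± 0.28 SE, adjusted p = 0.0231) and at E2F3 +/- day 3 (0.63 ± 0.28 SE, adjusted p = 0.0492). Fkbp8 in WT glands read 1.36, 1.27 and 1.13 in lactation, 1.4, 1.31 and 0.955 on day 1, 1.34, 2.06 and 3.3 on day 2, 1.57, 1.76 and 1.69 on day 3 and 2.47, 1.8 and 1.47 on day 4. Fkbp8 in E2F3 +/- glands read 1.08, 1.28 and 0.981 in lactation, 1.8, 1.38 and 1.43 on day 1, 1.44, 1.61 and 1.52 on day 2, 1.43, 2.37 and 1.49 on day 3 and 1.17, 1.9 and 1.9 on day 4. On WT day 2, 1 of 3 arrays lay within the lactation range. The WT day 2 call failed without WT day 2 replicate 3 (adjusted p = 0.199) or WT lactation replicate 3 (0.0747). It also failed with array weights (0.105), with only the groups compared in the fit (0.117) and without both arrays that stood apart (0.189). The E2F3 +/- day 3 call failed on leaving out any 1 of 5 arrays (up to 0.249) and after quantile normalization (0.052). It also failed with 0.01 kept (0.0548), with a replicate block (0.0539) and with only the groups compared in the fit (0.0732). Fkbp8 did not pass the F test over the 8 comparisons (adjusted p = 0.0512).

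Comparing the genotypes at the same time, folding genes differed at few points. In lactation 0 of 43 members were called by limma (0.379% of all probes; 3 members had an unadjusted p under 0.05). At day 1, 1 member was called lower in E2F3 +/- glands (0.659% of all probes called, 0.339% higher and 0.319% lower), and at day 2, 1 was called higher and 1 lower (12.7% of all probes called, 7.17% higher and 5.57% lower). At day 3, 0 members were called (0.0% of all probes; 7 with an unadjusted p under 0.05) and at day 4, 0 (1.12% of all probes; 6 with an unadjusted p under 0.05). Averaged over the 5 times, 0 members were called (0.619% of all probes; 4 with an unadjusted p under 0.05). At day 2 the count of 2 was 5 without WT day 2 replicate 1, 1 without WT day 2 replicate 3 or E2F3 +/- day 2 replicate 1 and 0 without E2F3 +/- day 2 replicate 2 or 3. The count was 4 at day 3 without E2F3 +/- day 3 replicate 1 and 7 at day 4 without E2F3 +/- day 4 replicate 3, 2 of the arrays that correlated less with their groups. A call missed in this design does not show that the genotypes were alike.

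The day 1 call was Hsp90aa1, whose ratios were 1.3, 0.822 and 1.85 in WT and 0.412, 0.404 and 0.497 in E2F3 +/- glands. All E2F3 +/- arrays lay below all WT arrays. The log2 difference, E2F3 +/- minus WT, was -1.53 (adjusted p = 0.0287), a 2.88-fold lower ratio. It failed without WT day 1 replicate 1 (adjusted p = 0.0917) or 3 (0.137), without E2F3 +/- day 1 replicate 1 (0.1), 2 (0.0647) or 3 (0.108), and when only the groups compared were fitted (0.084). Whether the rise from lactation to day 1 differed between genotypes was tested by the interaction, which was -1.10 (adjusted p = 0.462). The summed luminal marker ratios named above were likewise higher at WT day 1 than at E2F3 +/- day 1.

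At day 2 Dnajc3 was higher in E2F3 +/- glands, with ratios of 0.97, 1.55 and 1.76 against 0.821, 0.648 and 0.732 in WT glands. The groups did not overlap. The Dnajc3 difference was 0.92 (adjusted p = 0.0345). Edem1 was lower in E2F3 +/- glands at day 2, with 0.707, 0.626 and 0.811 against 0.865, 2.63 and 1.42, again without overlap, a difference of -1.06 (adjusted p = 0.0194). Each of these calls failed on leaving out any 1 of 4 arrays (adjusted p up to 0.16 for Dnajc3 and 0.0906 for Edem1), with array weights (0.21 and 0.0544) and when only the groups compared were fitted (0.118 and 0.153). At this day the secretory markers stood higher in E2F3 +/- glands, with 4 of 5 probes called (median difference 2.99) and summed ratios of 4870 to 6660 per array against 440 to 2670 in WT glands. The macrophage markers stood lower there, with 6 of 8 probes called and a median difference of -1.96. Their part in the Dnajc3 and Edem1 values was not tested.

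Whether the course from lactation over the 4 days differed between genotypes was tested jointly, and 1 of 43 members passed beside 5.91% of all probes. It was the Dnajc5 probe M300000124 (genotype by time F test, adjusted p = 0.0496), whose WT and E2F3 +/- ratios are given above. The other Dnajc5 probe gave an adjusted p of 0.153. Hsp90aa1 was next among the members with 0.0566. The count of 1 was 0 on leaving out any 1 of 24 arrays, 2 without WT day 2 replicate 1 or E2F3 +/- day 4 replicate 2, 3 without WT day 2 replicate 2, 9 without E2F3 +/- day 3 replicate 1 and 11 without E2F3 +/- day 4 replicate 3. In the single-day interactions 0 of 43 members were called at any day by limma, beside 0.379%, 0.0%, 0.24% and 0.319% of all probes at days 1 to 4 (3, 3, 2 and 1 members with an unadjusted p under 0.05).

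Genes that work with the ER members were read from a list of 60 symbols for translocation, signal cleavage, glycosylation, ER export and the unfolded protein response, of which 27 genes (28 probes) were tested. More of them were lower than higher in each comparison: 12, 17, 14 and 16 lower against 3, 3, 3 and 1 higher at WT days 1 to 4, and 12, 12, 18 and 19 lower against 5, 5, 4 and 4 higher at E2F3 +/- days 1 to 4. Their median change lay between -1.02 and -0.56, beside -0.07 to 0.14 for all probes. Of all tested probes, 18.2% to 37.4% were called lower and 17.4% to 34.2% higher per comparison, and 7.8% were called lower in all 8. The matching count of listed probes called lower in all 8 is not given here. Listed genes called lower in all 8 included Tram1, a translocon partner protein (-2.06 to -1.31), and Spcs2 of the signal peptidase (-1.33 to -0.92). Dad1, of the oligosaccharyltransferase (-1.99 to -0.996), and P4hb, the main protein disulfide isomerase (-1.57 to -1.04), were also called lower throughout. So were Lman1 and Mcfd2, which form a cargo receptor from the ER to the Golgi, with -2.82 to -1.53 for Lman1 and -2.16 to -1.20 for Mcfd2. Among the stress response genes, Ddit3 (CHOP) was called higher in 6 of 8 comparisons (0.94 to 1.49) and Chac1, a glutathione-degrading enzyme, in 6 (1.32 to 2.23). Herpud1 was called higher at WT days 2 to 4 and E2F3 +/- days 3 and 4 (1.26 to 1.87). Atf4 and Asns were called lower, Asns in all 8 comparisons (-2.03 to -0.86) and Atf4 in all but WT day 1 (-1.74 to -0.88).

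Of 33 cochaperone symbols for the cytosol and mitochondria, 12 genes (13 probes) were tested, and 2, 8, 0 and 2 probes were called higher against 3, 2, 2 and 2 lower at WT days 1 to 4. In E2F3 +/- glands 3, 4, 6 and 5 were called higher against 2, 2, 2 and 1 lower. The shares of all tested probes in these comparisons were 17.4% to 34.2% higher and 18.2% to 37.4% lower. Nudc, an Hsp90 cochaperone, was called higher at WT days 1 and 2 and at all E2F3 +/- days (0.76 to 1.26). Ahsa1, which stimulates the Hsp90 ATPase, was called higher at WT day 2 (0.87) and E2F3 +/- days 3 and 4 (0.85 and 1.16). Bag3 and Bag4, which bind Hsp70, were the genes most often lower, Bag3 in all 8 comparisons and Bag4 in 6 (-1.66 to -0.98).

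Markers of the cell types in the gland moved over the same days. Of 8 secretory epithelium markers 4 genes (5 probes) were tested, and 2, 5, 1 and 5 probes were called lower at WT days 1 to 4 and 0, 1, 4 and 5 at E2F3 +/- days 1 to 4. Their summed ratio was 6480 to 8270 per array in WT lactation and 440 to 2670 at WT day 2, and 7690 to 10100 and 904 to 3740 in E2F3 +/- lactation and day 4. The luminal epithelium markers (6 of 10 genes, 6 probes) went the other way. Of these, 5, 3, 5 and 3 probes were called higher at WT days 1 to 4 and 5, 4, 4 and 4 at E2F3 +/- days 1 to 4. In each comparison 0 were called lower. Of the fibroblast markers 4 of 8 genes were tested and all 4 were called higher at WT days 2 to 4 and E2F3 +/- days 2 to 4, with summed ratios of 6.35 to 10.3 in WT lactation and 28.5 to 53.7 at WT day 2. Macrophage markers (7 of 9 genes, 8 probes) were called higher on all 8 probes at WT days 2 to 4 and at E2F3 +/- days 3 and 4, with summed ratios of 6.12 to 12.5 in WT lactation and 81.5 to 505 at WT day 2. Adipocyte markers (4 of 8 genes, 6 probes) moved both ways, with 0, 4, 3 and 4 probes called higher and 2, 2, 2 and 0 lower at WT days 1 to 4. At E2F3 +/- days 1 to 4, 2, 4, 4 and 4 were called higher and 2, 2, 2 and 1 lower. Their summed ratios were 313 to 441 in WT lactation and 1130 to 2780 at WT day 2. Skeletal muscle markers (7 of 11 genes) ranged from 1.48 to 83.1 in WT lactation, from 398 to 2460 at WT day 2 and from 4.34 to 4300 at E2F3 +/- day 4. Of the B and plasma cell and endothelial lists 1 gene each was tested. The part of these markers in the folding gene values was not tested.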

How the data were processed

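Mammary gland RNA, isolated by CsCl ultracentrifugation and amplified per the labels' protocols, was read on 30 two-colour arrays, 3 mice per genotype and time. The deposited values are linear ratios, taken from the dyes in the labels as gland over reference. How background and normalization were handled is not given in the sources used here. Gene symbols came from the platform annotation (3997 of 6267 probes with 1 symbol, 115 with several, 2155 with none).

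Ratios listed at 0 (13146 values) or 0.01 (1223 values) were taken as missing, log2 ratios were centred on each array's median, and probes with at least 2 values in every group were kept (5010, of which 3968 had all values). A limma 3.58.1 model (R 4.3.3) with 10 group means was fitted to all arrays, with Benjamini-Hochberg adjustment over all tested probes, and was tested on simulated data. Adjusted p-values in the report come from this fit, except those given for an array left out or for another named setting. Promoters came from RefSeq (GRCm38.p6), and motifs were searched in Python 3.11.15; the arrays name no genome build.

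The members, role sets, partner lists and markers were chosen with earlier results of these data known. Values on every array were given for the 2 probes per role set with the smallest F-test p over the day contrasts, the 4 members with the smallest genotype by time p, Hsp90b1, and members with the largest changes in a set. They were also given for Ssr1, Pdia4, Fkbp14, Dnajb6 and the untested Fkbp5, which meet none of these rules. Alternatives were the values without centring, quantile normalization, 0.01 kept, probes on every array only, array weights, a replicate block, only the groups compared, each array left out and, added after seeing the data, WT day 2 replicate 3 and E2F3 +/- day 4 replicate 3 left out together. Arrays with the same replicate number did not deviate together (135 pairs, median r = 0.0086, against -0.0066 for other numbers), so replicate numbers were not taken as pairs.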

Additional observations from a re-analysis of the deposited data

Results flagged for a closer look

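Of the folding gene probes, 1 differed between the genotypes in its course over time by a test of the difference itself. Dnajc5 (M300000124) had a genotype by time F test adjusted p of 0.0496 in limma, next to the threshold. Its response in E2F3 +/- glands minus that in WT glands was -0.74 at day 1 (adjusted p = 0.886), 0.80 at day 2 (0.473), -1.62 at day 3 (0.412) and -0.88 at day 4 (0.547), so that no single day was called. The other Dnajc5 probe (M300000125) gave -0.51, 1.05, -0.53 and 0.53 at these days, with the opposite sign at day 4 and an F test adjusted p of 0.153.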

How the results depend on the processing

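Members called against lactation moved by over 1.5 times under some settings. With array weights the counts were 26, 31 and 34 at WT days 1, 3 and 4 and 29 at E2F3 +/- day 1. With only the groups compared in the fit they were 22, 26 and 22 at WT days 1 and 3 and E2F3 +/- day 1. Without both arrays that stood apart they were 20, 18 and 21 for the same comparisons, and after quantile normalization 17 at WT day 3. With each array left out in turn the counts ran from 7 to 12, 26 to 31, 5 to 10 and 11 to 18 at WT days 1 to 4, and from 9 to 12, 12 to 20, 21 to 28 and 19 to 30 at E2F3 +/- days 1 to 4. For genotype, array weights gave 2, 2, 0, 16 and 11 members from lactation to day 4, and only the groups compared gave 0 at days 1 and 2. Quantile normalization gave 4 at day 2, and leaving out both arrays that stood apart gave 3 at day 3 and 9 at day 4. Single arrays left out gave 0 to 0, 0 to 1, 0 to 5, 0 to 4 and 0 to 7 from lactation to day 4. The genotype by time F test called 3 members without centring, 3 after quantile normalization, 2 over probes on every array, 20 with array weights, 9 without both arrays that stood apart and 0 to 11 with single arrays left out. The fit with a replicate block called 13, 33, 9 and 20 members at WT days 1 to 4, 12, 24, 26 and 26 at E2F3 +/- days 1 to 4, 0, 1, 2, 0 and 0 between genotypes and 1 in the F test. The values that changed sign were all uncalled. Without centring, Cct5 at WT day 1 was 0.04, Edem1 at WT day 4 0.097, Fkbp8 and Fkbp9 at WT day 1 0.066 and 0.09, Hsp90aa1 at WT day 4 0.064 and Hsp90b1 at E2F3 +/- day 1 0.051. After quantile normalization Edem1 and Hsp90aa1 at WT day 4 were 0.001 and 0.142, and Hsp90b1 at WT day 1 was -0.028. With array weights Fkbp8, Fkbp9 and Hsp90b1 at WT day 1 were 0.051, 0.102 and -0.129 and Hsp90aa1 at WT day 4 0.067. With 0.01 kept, Hsp90b1 at WT day 1 was -0.006. With single arrays left out, Cct5 ran from -0.277 to 0.033, Fkbp8 from -0.161 to 0.115, Fkbp9 from -0.172 to 0.136 and Hsp90b1 from -0.209 to 0.246 at WT day 1. Edem1 ran from -0.116 to 0.039 and Hsp90aa1 from -0.306 to 0.139 at WT day 4, and Hsp90aa1 from -0.377 to 0.068 at WT day 3. At E2F3 +/- day 2 Hsp90aa1 ran from -0.358 to 0.091, and at E2F3 +/- day 1 Hsp90b1 from -0.201 to 0.141. The cause of these changes was not tested.

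No scanner files were used, so signal over background is unknown, and values listed at 0 or 0.01 cannot be told from failed spots. The 70-base probes were not aligned to transcripts. Glands mix cell types whose markers moved over the same days.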
